A study of Rattus norvegicus with 12 samples.

Results

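Interleukin 1 (IL-1) and interleukin 6 (IL-6) signalling was examined in the contused rat spinal cord through 10 genes chosen by name. These were the ligand genes Il1a, Il1b, Il6 and Tnf, the antagonist gene Il1rn, the receptor genes Il1r1, Il1r2, Il6r and Il6st, and the feedback inhibitor gene Socs3. Of the 10 genes, 8 were found among the 17423 genes listed in each of 2 tables of expression, 1 for each phase after injury. Il6st and Tnf could not be matched to a listed identifier and were not analysed here. For Il6st, the order of its neighbours points to a stretch of chromosome 2 of the RN4 rat genome in which the tables list no gene, from 36435786 to 55714874. For Tnf, the listed genes of its region share a single merged locus, within which their order could not be resolved.

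RNA-seq was performed on 12 female rats. All received a spinal cord contusion at a force of 200 kdyn when aged 16 to 18 weeks. The 4 groups of 3 rats were immunocompetent Sprague-Dawley rats (SD, Hsd:SD) and athymic nude rats (AN, Hsd:RH-rnu/rnu), each taken 1 week (acute phase) or 8 weeks (chronic phase) after injury. Rats of the chronic phase were therefore older when taken, so age and time after injury cannot be told apart across the phases. AN rats carry the rnu allele on both chromosomes and do not form a working thymus, so mature T cells are scarce in them. AN and SD are separate stocks, so the rnu allele and the rest of the genetic background cannot be told apart in these comparisons. The tissue was a 1-mm segment of cord through the injury, taken after perfusion with saline, and it holds every cell type of the lesion. There was no uninjured group.

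Expression was given as FPKM, the fragments of a gene scaled by its exon length and by the fragments mapped, with a single value for each group of 3 rats. The spread between rats was therefore not shown by the values used here, no test was made, and each difference below is a description of 2 group values. Strain differences are written as log2FC, the log2 ratio of the AN value to the SD value, so values above 0 denote enrichment in AN rats. The number of fragments behind each gene was not given in the tables.

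IL-1 alpha and IL-1 beta are inflammatory cytokines that act on the same receptor, which is formed by the products of Il1r1 and Il1rap and signals through the adaptor MyD88 to the transcription factor NF-kB. The products of Il1rn and Il1r2 oppose them, the first by occupying the receptor and the second by binding the ligand without signalling. IL-6 binds the product of Il6r, which then joins the shared receptor chain encoded by Il6st and activates JAK kinases and STAT3. Socs3 is induced by STAT3 and shuts this signal off. After spinal cord injury, microglia, infiltrating macrophages and astrocytes are known sources of these cytokines.

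In the acute phase all 8 genes had a higher FPKM in AN rats than in SD rats, as deposited and with each other scaling tried. The median log2FC of the 8 genes was 0.68, with a range of 0.30 (Il1b) to 1.95 (Il6), while the median over 11326 genes was 0.00 (-0.00157). Of those 11326 genes, 49.8% had a log2FC above 0. In the chronic phase 7 of the 8 genes had a log2FC above 0, beside 50.8% of 11429 genes, but most were near 0. The median of the 8 genes was 0.13, beside 0.00 (0.004414) over the 11429 genes. The log2FC of Il1a in the chronic phase, 0.07, turned to -0.000549 when each group was rescaled to the same summed FPKM. Il1r1 and Il1r2 were the genes whose enrichment in AN rats was of similar size in both phases.

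**Figure D1:**
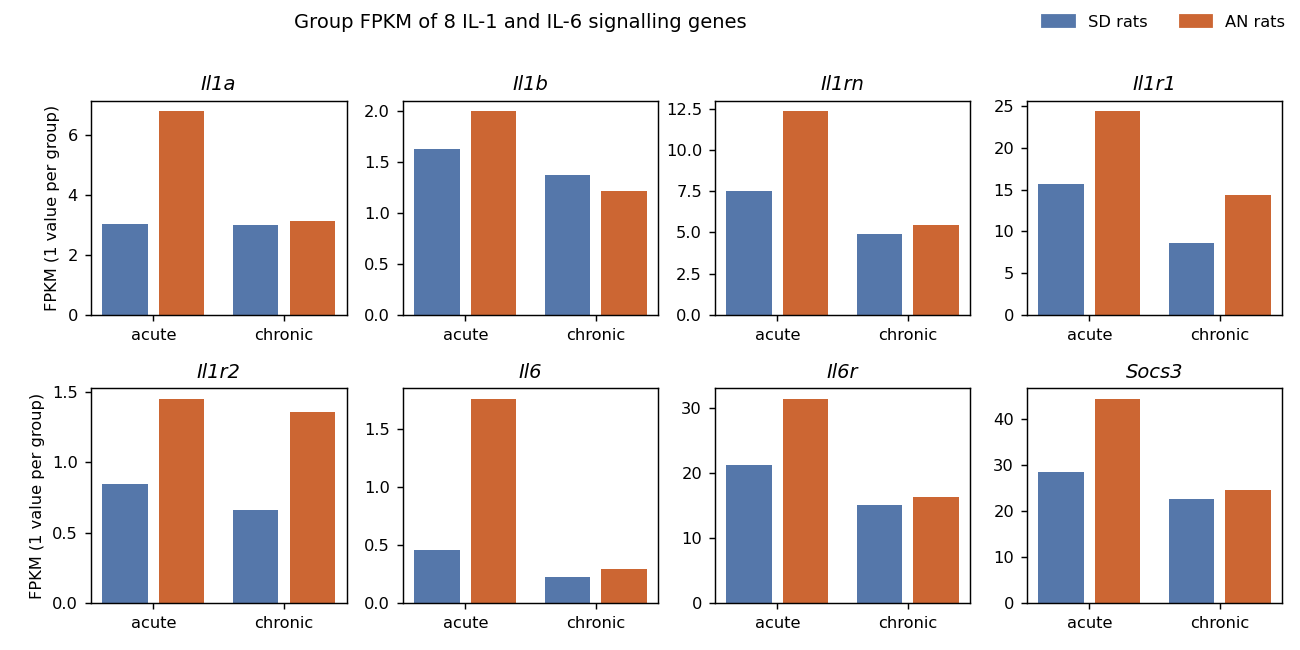
FPKM (vertical axis, from 0, with a scale for each gene) of the 8 genes found, in SD rats and AN rats of the acute and chronic phases. Each bar is the single value given for a group of 3 rats, so no error bar can be drawn. The AN bar is the taller in every acute pair, and in the chronic pairs it clearly exceeds the SD bar in Il1r1 and Il1r2 (14.4 against 8.64 and 1.36 against 0.663).

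Genes that reached an FPKM of 1 in at least 1 strain were compared by size of change. All 8 genes met this minimum at 1 week, and 7 at 8 weeks, where Il6 was below it in both strains. Il6 in the acute phase and Il1r2 in both phases met it through the AN value alone, so for them the minimum itself favoured enrichment in AN rats. In the acute phase 2 of 8 genes (Il1a and Il6) were at least 2-fold higher in AN rats, beside 2.07% of all genes, and 0 of 8 were 2-fold higher in SD rats, beside 11.4% of all genes. At least a 1.5-fold enrichment in AN rats was seen for 6 of 8 genes, beside 7.51% of all genes. The exceptions were Il6r, just short of this fold, and Il1b. In the chronic phase 1 of 7 genes (Il1r2) was at least 2-fold higher in AN rats, beside 2.27% of all genes, and 2 of 7 (Il1r1 and Il1r2) were at least 1.5-fold higher, beside 6.33%. None of the 8 genes was higher in SD rats by 1.5-fold in either phase, a change seen in 18.0% of all genes at 1 week and 10.6% at 8 weeks, so that a count of 0 lies near the background. At least a 2-fold enrichment in SD rats was seen in 6.33% of all genes in the chronic phase.

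Il1a (RGD:2890, chromosome 3 of RN4, 116913612 to 116924114) encodes IL-1 alpha, a cytokine that cells also release when they are damaged. At 1 week SD rats had 3.03 FPKM and AN rats 6.79, which is a log2FC of 1.17. At 8 weeks SD rats had 2.98 and AN rats 3.13 (log2FC 0.07). The acute AN value thus stood above 3 values that lay close together. A log2FC at least as large as that of Il1a was seen in 1.40% of all genes at 1 week. Among 2584 genes of like level, whose geometric mean FPKM over the 2 strains was within 2-fold of that of Il1a, the share was 1.74%.

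Il1b (RGD:2891, chromosome 3, 116964422 to 116970867) encodes IL-1 beta, which is made as a precursor and cut by inflammasome caspases. It is listed 40.3 kb from Il1a and was named by this order. SD rats had 1.63 FPKM and AN rats 2.01 at 1 week, against 1.38 and 1.21 at 8 weeks. Its log2FC was 0.30 (acute) and -0.18 (chronic), the smallest acute value and the only chronic value below 0 among the 8 genes. At least as large a log2FC was seen in 20.4% of 1676 genes of like level at 1 week. FPKM is scaled by length, so levels of different genes can be set side by side within a group, and Il1a exceeded Il1b in each group. The ratio of Il1a to Il1b was 1.85 for SD and 3.39 for AN rats at 1 week, against 2.17 and 2.58 at 8 weeks. This ratio was added after the values were seen.

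Il1rn (RGD:621159, chromosome 3, 2607800 to 2613216) encodes the IL-1 receptor antagonist. At 1 week it was listed at 7.51 FPKM for SD rats and 12.4 for AN rats (log2FC 0.72). At 8 weeks it was listed at 4.92 and 5.44 (log2FC 0.15). Il1rn was more abundant than both ligand genes together in every group. The ratio of Il1rn to the sum of Il1a and Il1b was 1.61 for SD and 1.41 for AN rats at 1 week. At 8 weeks it was 1.13 for SD and 1.25 for AN rats. The antagonist and the summed ligands were therefore both higher in acute AN rats, and their ratio differed between strains by less than the genes themselves.

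The receptor genes Il1r1 and Il1r2 are neighbours on chromosome 9. Il1r1 (RGD:2892, 39434910 to 39473552) encodes the signalling receptor and stood at 15.7 FPKM for SD rats and 24.5 for AN rats at 1 week. At 8 weeks SD rats had 8.64 and AN rats 14.4. Its log2FC was 0.64 (acute) and 0.74 (chronic). A log2FC this large was seen in 4.21% of all genes at 8 weeks.

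Il1r2 (RGD:621147, 39279397 to 39319672) encodes the decoy receptor and was far less abundant. SD rats had 0.843 FPKM and AN rats 1.45 at 1 week (log2FC 0.79), against 0.663 and 1.36 at 8 weeks (log2FC 1.03). At this level large ratios are common: among 1363 genes of like level at 8 weeks, 6.16% had a log2FC at least as large and 22.0% were at least 2-fold higher in SD rats. The ratio of Il1r2 to Il1r1 was 0.0536 for SD and 0.0594 for AN rats at 1 week, against 0.0767 and 0.0940 at 8 weeks. The decoy receptor was thus listed far below the signalling receptor in all 4 groups.

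Il6 (RGD:2901, chromosome 4, 456799 to 461376) encodes IL-6 and was the least abundant of the 8 genes in 3 of the 4 groups. At 1 week SD rats had 0.457 FPKM and AN rats 1.76, which is a log2FC of 1.95 (3.86-fold). At 8 weeks SD rats had 0.225 and AN rats 0.291 (log2FC 0.37), and the authors' software marked the gene as having too few reads to compare there. The acute AN value exceeded each of the other 3 by more than 3-fold. At least as large a log2FC at 1 week was seen in 0.309% of all genes and in 0.972% of 1337 genes of like level. Among those genes of like level 5.68% were 2-fold higher in AN rats and 38.1% were 2-fold higher in SD rats.

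Il6r (RGD:2902, chromosome 2, 182078049 to 182128135) encodes the ligand-binding receptor chain for IL-6 and was among the more abundant genes. At 1 week it stood at 21.2 FPKM for SD rats and 31.4 for AN rats (log2FC 0.57). At 8 weeks it stood at 15.0 and 16.3 (log2FC 0.12). The receptor was thus listed at a far higher level than its ligand in every group.

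Socs3 (RGD:621087, chromosome 10, 107958468 to 107959330) had the highest FPKM of the 8 genes in every group. It was listed at 28.6 for SD rats and 44.5 for AN rats at 1 week (log2FC 0.64). At 8 weeks it was listed at 22.7 and 24.6 (log2FC 0.11). The name Socs3 is less certain than the other names, because it was placed by order at the edge of a stretch of 10.6 Mb in which the tables list no gene.

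In SD rats of both phases the order of the levels was Socs3, Il6r, Il1r1, Il1rn, Il1a, Il1b, Il1r2 and Il6, from the highest FPKM to the lowest. AN rats had the same order except at the lower end, where Il6 stood above Il1r2 at 1 week and Il1r2 above Il1b at 8 weeks. Whether neighbours in this order differ beyond the spread between rats cannot be judged from 1 value for each group.

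**Figure D2:**
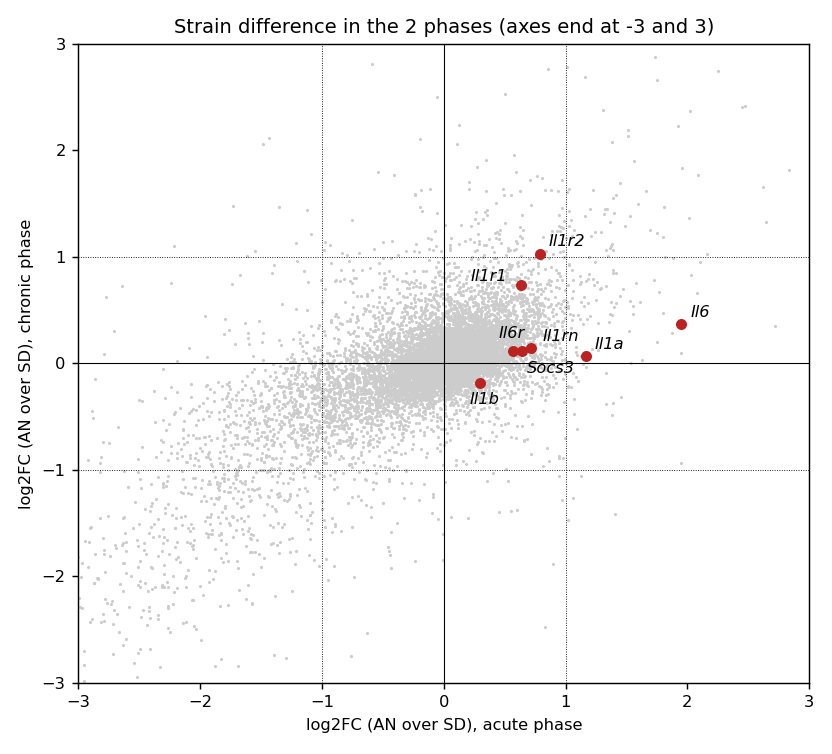
log2FC of AN over SD rats in the acute phase (horizontal axis) against the chronic phase (vertical axis), with 1 point for each gene. Grey points are the 11108 genes that reached an FPKM of 1 in at least 1 strain of both phases, except those beyond the axes, and red points are the 8 genes found, with Il6 drawn although its chronic FPKM was below 1. Dotted lines mark 2-fold. Il6 (1.95) and Il1a (1.17) lie to the right of the acute line, and Il1r2 (1.03) lies just above the chronic line.

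Across the phases, each of the 8 genes had a lower FPKM at 8 weeks than at 1 week in both strains. The 2 tables were normalized separately, and the median of log2 chronic over acute FPKM was 0.01 over 11479 genes in SD rats and 0.03 over 11233 genes in AN rats. Over the 8 genes the median was -0.42 in SD rats and -0.90 in AN rats. In AN rats the lowest value was that of Il6 (-2.60), followed by Il1rn (-1.19) and Il1a (-1.12). In SD rats Il6 also had the lowest value (-1.02), while Il1a was listed at nearly the same level in both phases (-0.02). Il1r2 in AN rats was nearly level as well (-0.10).

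The log2FC at 1 week minus that at 8 weeks was 1.58 for Il6 and 1.10 for Il1a, differences reached by 0.521% and 1.32% of all genes. It was between 0.45 and 0.57 for Il1b, Il1rn, Il6r and Socs3. It was -0.10 for Il1r1 and -0.25 for Il1r2, so for these receptor genes the strain difference was not smaller at 8 weeks. None of these differences was tested, since values for each rat were not analysed here.

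The bases before the start of Il6 and Il1a are shown because these genes were more than 2-fold higher in acute AN rats. The sequences are those of RefSeq on the GRCr8 assembly, 250 bases before the annotated start, written 5′ to 3′ along the gene. Il6 lies on the minus strand at chr4:5894576-5894825 and Il1a on the minus strand at chr3:136990018-136990267. Capitals mark matches to 4 motifs searched on both strands. These were the NF-kB consensus, the AP-1 motif TGANTCA, the C/EBP motif TTNNGCAA and the STAT motif TTCNNNGAA, where N is any base.
Il6: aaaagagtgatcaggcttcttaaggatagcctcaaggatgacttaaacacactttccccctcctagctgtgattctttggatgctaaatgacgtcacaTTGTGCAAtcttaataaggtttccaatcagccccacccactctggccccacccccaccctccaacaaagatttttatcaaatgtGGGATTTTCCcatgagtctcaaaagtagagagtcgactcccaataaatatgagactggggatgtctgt
Il1a: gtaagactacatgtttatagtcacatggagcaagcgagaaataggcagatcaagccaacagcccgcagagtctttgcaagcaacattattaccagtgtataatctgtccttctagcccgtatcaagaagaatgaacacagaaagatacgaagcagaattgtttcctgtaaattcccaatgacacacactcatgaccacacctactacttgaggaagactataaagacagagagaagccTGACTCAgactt
The Il6 window holds a C/EBP match 152 to 145 bases before the start and an NF-kB match 68 to 59 bases before the start. The Il1a window holds no NF-kB match but an AP-1 match 12 to 6 bases before the start. Of 33469 windows of this length in the RefSeq set, 3.54% hold the NF-kB consensus, 6.34% the AP-1 motif, 9.22% the C/EBP motif and 7.67% the STAT motif.

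A window was given for 7 of the 8 genes, and 3 of them (Il6, Il1r1 and Socs3) hold the NF-kB consensus. The STAT motif was in 0 of the 7, a count near its share of all windows. Among the 86 other genes of the pathway lists described below 58 had a window, of which 12 held the NF-kB consensus, 10 the STAT motif, 8 the AP-1 motif and 8 the C/EBP motif. The matches of the 3 genes found and of 4 inflammatory target genes are shown with 10 bases on each side, with the matched bases in capitals, to let the sites be compared.
Il6: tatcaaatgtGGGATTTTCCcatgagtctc
Il1r1: cagagaccctGGAATGCCCCgcagggatgt
Socs3: gcgggtcaaaGGGGTGCCCCaggcgctagg
Cxcl1: cctgtgctccGGGAATTTCCctggcctgga
Cxcl2: cctaagctcaGGGGATTTCCctgatccctg
Ccl20: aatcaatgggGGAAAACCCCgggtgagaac
Vcam1: tccccttgaaGGGATTTCCCtccgcctctc
Cxcl1, Cxcl2, Ccl20 and Il6 were more than 2-fold higher in acute AN rats, and Vcam1 was more than 2-fold lower. A match in the sequence thus went with either direction. The motif match is a description of the letters and not evidence of binding.

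Markers of cell types differed between strains, and fewer cells of a type and less RNA per cell cannot be told apart in bulk tissue. Of 11 macrophage and microglia markers 9 were matched, and their summed FPKM came to 1742 for SD and 2672 for AN rats at 1 week. Cd68 alone had 1115 and 1757 of these sums. At 1 week 8 of the 9 had a log2FC above 0, beside 49.8% of all genes, and 7 were at least 1.5-fold higher in AN rats, beside 7.51%. Their median was 0.78, and 2 of the 9 were named by order. The largest was that of Cd163 (1.95), a scavenger receptor gene of macrophages, followed by Cd14 (1.17) and Itgam (1.12), while the microglial marker gene Tmem119 had -0.12. At 8 weeks the summed FPKM was 1060 for SD and 1321 for AN rats, of which Cd68 had 606 and 841. At that time 5 of the 9 had a log2FC above 0, beside 50.8% of all genes, and the median was 0.41. The acute median of the macrophage markers was of the same order as that of the IL-1 and IL-6 genes (0.68), and the part of the marker difference in the values above was not tested.

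The defining T cell markers were at low levels. Of 4 markers 3 were matched, with a summed FPKM of 4.58 for SD and 1.06 for AN rats at 1 week and of 4.49 and 3.25 at 8 weeks. Cd3g had an acute log2FC of -2.37. Of 7 neutrophil markers 5 were matched, with sums of 42.8 for SD and 48.4 for AN rats at 1 week and of 27.5 and 28.4 at 8 weeks. Of the 3 neutrophil markers compared at 1 week, Csf3r had a log2FC of 0.60, S100a8 -0.29 and Camp -0.93, with a median of -0.29. Elane and Cxcr2 were below an FPKM of 1 in all groups.

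The matched markers of neural cells were lower in AN rats at 1 week. Of 6 neuron markers 4 were matched, with a summed FPKM of 419 for SD and 24.8 for AN rats. Of 5 oligodendrocyte markers 3 were matched, with sums of 819.9 and 304. Of 5 astrocyte markers 2 were matched, with sums of 2233 and 654, of which S100b had 2173 and 635. All these matched genes were named directly and not by order. At 1 week 27.7% of direct names were 2-fold higher in SD rats, beside 2.12% of names by order. At 8 weeks the neuron sum was still 438 and 85.2, while the oligodendrocyte sum was 845 and 734. The astrocyte sum was 4552 and 3235, of which S100b had 4461 and 3159. All 6 fibroblast markers matched had a log2FC above 0 in both phases, beside 49.8% of all genes at 1 week and 50.8% at 8 weeks, with medians of 0.54 and 0.63. The endothelial list rested on 1 matched gene, Cdh5 (0.18 and 0.79). Il1r1 is expressed by endothelium and fibroblasts as well, and the part of these markers in its values was not tested.

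**Figure D3:**
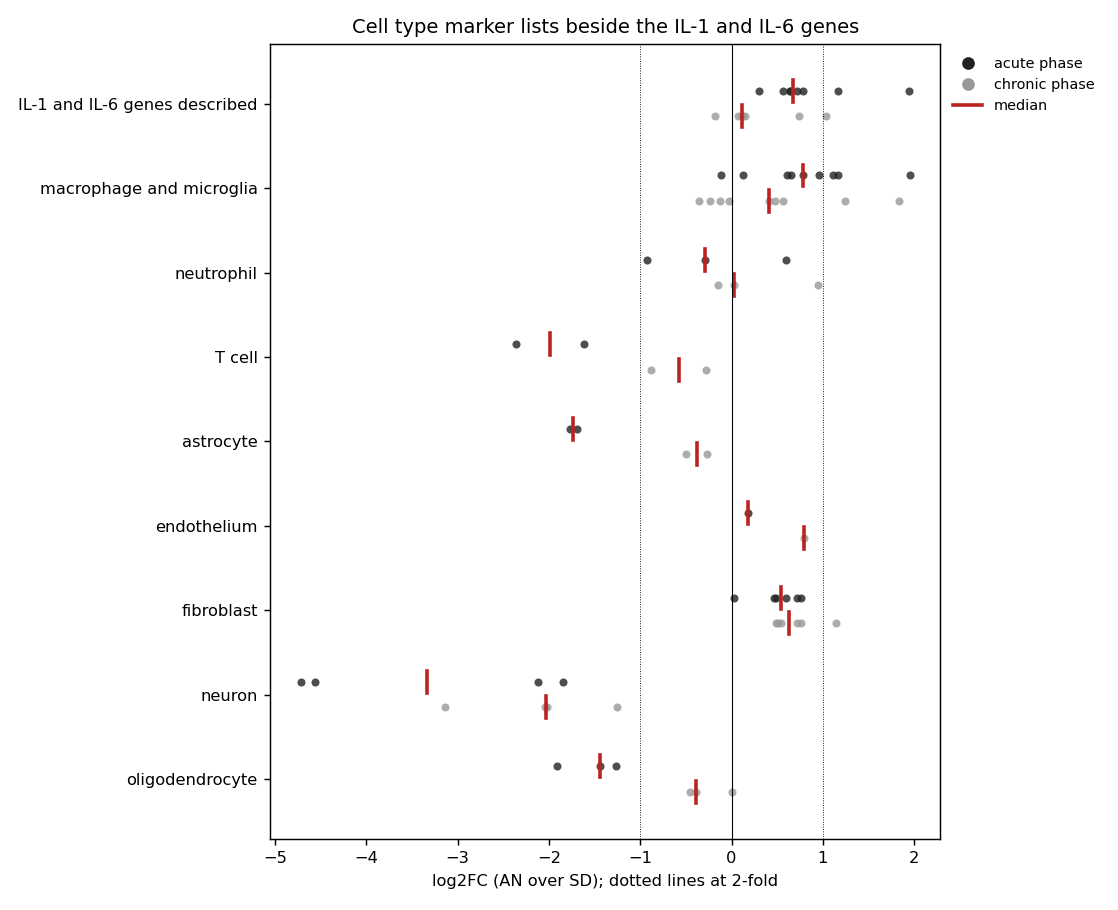
log2FC of AN over SD rats (horizontal axis) for the IL-1 and IL-6 genes and for markers of 8 cell types, with 1 point for each gene that reached an FPKM of 1 in at least 1 strain. Dark points are the acute and grey points the chronic phase, red bars are medians and dotted lines mark 2-fold. Macrophage and microglia markers lie mostly to the right of 0 in the acute phase (median 0.78), while neuron markers lie at -1.85 or lower.

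Other genes of the IL-1, IL-6 and TNF pathways were taken from 8 lists of 130 genes, of which 86 were matched. At 1 week 72 of these were compared. At least a 2-fold enrichment in AN rats was seen for 14 (19.4%, beside 2.07% of all genes) and in SD rats for 4 (5.56%, beside 11.4%). Of the 14, 5 had an FPKM below 1 in SD rats and were compared through the AN value alone. At 8 weeks 6 of 67 (8.96%, beside 2.27%) were enriched in AN rats and 1 (1.49%, beside 6.33%) in SD rats. The median log2FC of the lists together was 0.27 at 1 week and 0.16 at 8 weeks. Genes with a direct name were more often past 2-fold than genes named by order. At 1 week 3.97% of direct names and 0.677% of names by order were 2-fold higher in AN rats, and 27.7% and 2.12% were 2-fold higher in SD rats. At 8 weeks the shares were 2.30% and 1.95% for AN rats and 14.8% and 1.38% for SD rats. Of the 14 genes 12 had a direct name, as did Il1a and Il6.

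Of the IL-1 family, 11 of 15 ligands and receptors were matched, and 5 were compared in each phase. Il33, whose product is an alarmin of the IL-1 family, had 75.9 FPKM for SD and 219.7 for AN rats at 1 week (log2FC 1.53), and 57.5 and 57.8 at 8 weeks. Il1rl1, which encodes the receptor for IL-33, had 1.95 and 5.20 at 1 week (log2FC 1.41) and 1.92 and 2.84 at 8 weeks (0.57). Ligand and receptor thus both stood higher in acute AN rats. Il18, a further cytokine of the family, had 58.2 and 86.1 at 1 week and 46.4 and 44.7 at 8 weeks. Il18bp, which encodes a soluble inhibitor of IL-18, had the reverse timing, with 48.7 and 58.0 at 1 week (0.25) and 37.0 and 94.4 at 8 weeks (1.35). Il1rap, the partner chain of Il1r1, was nearly level between strains, with log2FC of 0.11 and 0.21. Il1rl2 (0.298 and 0.927 FPKM at 1 week) and Il18r1 (0.298 and 0.187), both receptor genes, were below an FPKM of 1 in all groups. The Il36 ligand genes matched and Il1f10 were at or near 0 in all groups.

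Of the maturation and transduction genes 13 of 19 were matched, and 12 were compared in each phase. The inflammasome gene Nlrp1a was at least 2-fold higher in AN rats in both phases, with 4.50 FPKM for SD and 11.4 for AN rats at 1 week (log2FC 1.35) and 2.91 and 5.84 at 8 weeks (1.00, just past 2-fold). At 8 weeks it fell short of 2-fold with 0.1 or 1 FPKM added and with the rescaled sum. Nlrp1a has close copies in the rat, between which reads may be split. The other inflammasome genes Nlrp3 (0.49) and Nlrc4 (0.56), the adaptor gene Myd88 (0.44) and the kinase gene Irak2 (0.43) were higher in acute AN rats by less than 1.5-fold. Map3k7, Tab1, Tab2 and Tollip lay between -0.19 and 0.10. At 8 weeks Nlrp3 had 0.28, Myd88 0.26, Irak2 0.02 and Nlrc4 -0.28. The adaptor gene Pycard had 0.24 at 1 week and -0.41 at 8 weeks.

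Of the IL-6 family 11 of 14 ligands and receptors were matched. At 1 week 2 of the 10 genes compared (Il11 and Lif) were 2-fold higher in AN rats, beside 2.07% of all genes, and 2 (Cntf and Lifr) were 2-fold higher in SD rats, beside 11.4%. The list's median was -0.11. The count higher in AN rats was 1 when both strains had to reach an FPKM of 1, with direct names alone and with 1 FPKM added, and the count higher in SD rats was 1 with 1 FPKM added. Il11, a ligand gene of the family, had 0.896 FPKM for SD and 3.60 for AN rats at 1 week (log2FC 2.01) and about 0.3 in both strains at 8 weeks. Lif, which encodes leukemia inhibitory factor, had 3.94 and 8.70 at 1 week (1.14) and 1.25 and 1.29 at 8 weeks (0.04). Of the 7 ligand genes matched, 3 were higher and 4 were lower in AN rats at 1 week, beside 49.8% of all genes higher. At 8 weeks 4 were higher and 3 were lower, beside 50.8% higher. Both splits lie near the background. The other genes below 2-fold, named after their values were seen, were Osm (0.72), Clcf1 (-0.06), Il27 (-0.34) and Ctf1 (-0.58). Of these, Il27 was below an FPKM of 1 in all groups.

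Cntf, which encodes ciliary neurotrophic factor, a ligand made by astrocytes and Schwann cells, was lower in AN rats. Its FPKM came to 47.4 for SD and 18.0 for AN rats at 1 week (log2FC -1.39) and 87.9 and 44.1 at 8 weeks (-0.99). Lifr, the receptor chain for LIF, had 7.11 and 3.18 at 1 week (-1.16) and 8.31 and 9.02 at 8 weeks (0.12). Osmr, the oncostatin M receptor chain, had 10.4 and 18.4 at 1 week (0.83) and 6.08 and 9.95 at 8 weeks (0.71). Il11ra1, the IL-11 receptor gene, had -0.37 and -0.11. The 2 receptor chains Lifr and Osmr thus differed in direction at 1 week.

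**Figure D4:**
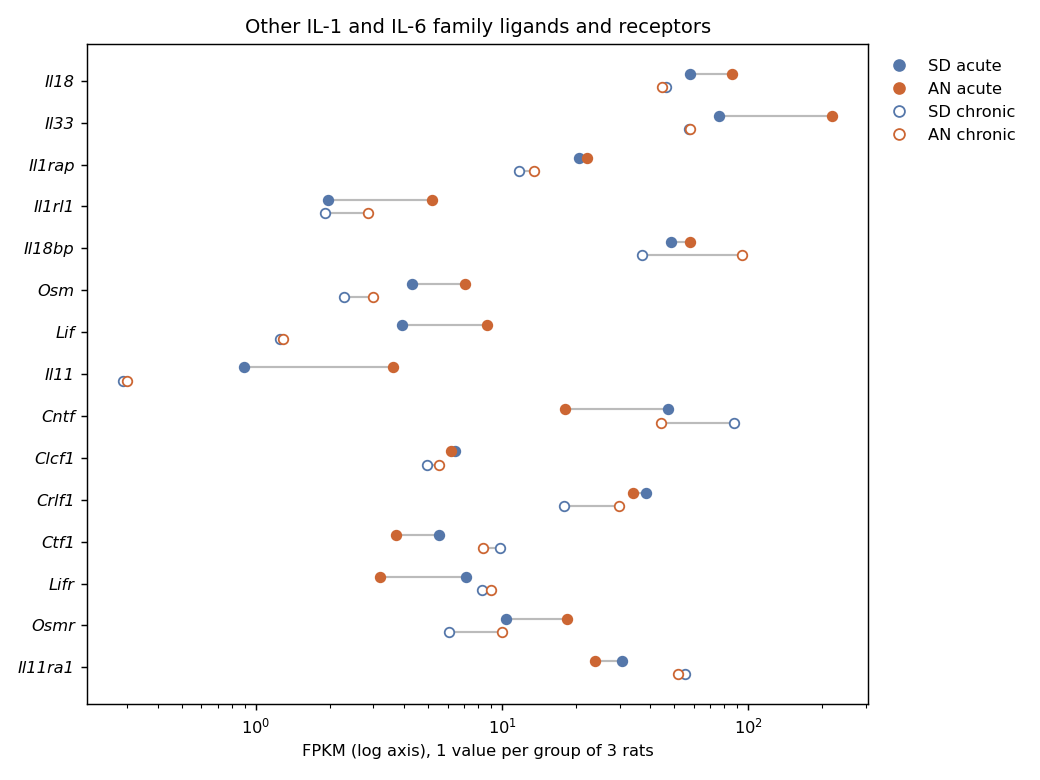
FPKM (horizontal axis, log scale) of the other IL-1 and IL-6 family genes that reached an FPKM of 1 in at least 1 group. Filled circles are the acute and open circles the chronic phase, blue is SD and orange is AN, and a grey line joins the strains of a phase. Il33, Il1rl1, Lif and Il11 have long acute lines with AN to the right, while Cntf and Lifr have AN to the left.

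Of 15 JAK-STAT genes 11 were matched, and Stat3, the transducer gene of IL-6, was not among them. In either phase 0 of 11 were past 2-fold, beside 2.07% (AN) and 11.4% (SD) of all genes at 1 week. Of the 11 genes 9 were named by order, for which these shares were 0.677% and 2.12%, so a count of 0 lies near the background. The medians were 0.12 and 0.07. The kinase genes Jak1 (0.12) and Jak2 (0.36) and the transducer genes Stat5a (0.13) and Stat5b (0.15) were within 1.5-fold at 1 week. Of the feedback genes, Socs2, Socs5, Socs7 and Cish lay between -0.24 and 0.29 at 1 week, below the 0.64 of Socs3. At 8 weeks Cish had 0.72, above the 0.11 of Socs3, and Socs2, Socs5 and Socs7 lay between -0.04 and 0.06. Ptpn6, a phosphatase gene of blood cells, had 0.60 at 1 week.

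Of 18 genes known as targets of STAT3 in acute phase responses and injury 12 were matched, and 10 were compared in each phase, with medians of 0.15 and 0.42. In each phase 7 of 10 had a log2FC above 0, beside 49.8% of all genes at 1 week and 50.8% at 8 weeks. At 1 week 2 of 10 were 2-fold higher in AN rats, beside 2.07% of all genes, and 1 in SD rats, beside 11.4%, and at 8 weeks 2 and 1 of 10, beside 2.27% and 6.33%. At 8 weeks the count higher in AN rats was 1 with 1 FPKM added and with direct names alone, and the count higher in SD rats was 0 with 1 FPKM added and 2 with the rescaled sum. Hp, which encodes the hemoglobin-binding protein haptoglobin, had 2.62 FPKM for SD and 23.9 for AN rats at 1 week (log2FC 3.19) and 2.39 and 5.38 at 8 weeks (1.17). Cebpb, the gene of a transcription factor first described for the IL-6 response, had 35.3 and 78.9 at 1 week (1.16) and 44.8 and 48.4 at 8 weeks (0.11). Both genes had their larger strain difference at 1 week. Serpina3n, an astrocyte-associated protease inhibitor gene, was lower in AN rats, with 12.5 and 2.53 at 1 week (-2.31) and 4.16 and 1.90 at 8 weeks (-1.13). Lcn2, which encodes lipocalin, had 17.1 and 11.5 at 1 week (-0.58) and 13.2 and 27.9 at 8 weeks (1.08). Serpina3n belongs to a family of close copies, between which reads may be split.

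For the TNF pathway 6 of 12 genes were matched, and the receptor genes were not among them. Birc2, which encodes a ubiquitin ligase of the TNF receptor complex, had 30.8 FPKM for SD and 67.1 for AN rats at 1 week (log2FC 1.12) and 22.4 and 50.4 at 8 weeks (1.17). Its neighbour Birc3 had 3.56 and 6.54 (0.88) and 4.07 and 5.98 (0.56). Tradd, Traf2, Ripk1 and Cflar lay between -0.02 and 0.33 at 1 week. Of 14 NF-kB subunit and inhibitor genes 6 were matched. In either phase 0 of 6 were past 2-fold, beside 2.07% (AN) and 11.4% (SD) of all genes at 1 week. At 8 weeks the shares of all genes were 2.27% and 6.33%. Of the 6 genes 5 were named by order, for which 0.677% and 2.12% were past 2-fold at 1 week. The count of 0 thus lies near the background as well. Nfkbia, the feedback inhibitor gene, had 0.11 at 1 week and 0.28 at 8 weeks.

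Of 23 inflammatory targets of IL-1 and TNF 16 were matched and 12 were compared at 1 week. Ccl20, Cxcl2, Sele and Selp were compared through the AN value alone, which favoured enrichment in AN rats. With them the median log2FC was 1.11, 6 of 12 genes were 2-fold higher in AN rats, beside 2.07% of all genes, and 1 was 2-fold higher in SD rats, beside 11.4%. Over the 8 genes that reached an FPKM of 1 in both strains the median was 0.48, and 2 genes (Cxcl1 and Hmox1) were 2-fold higher in AN rats. Ccl20, which encodes a chemokine, had 0.499 FPKM for SD and 7.16 for AN rats at 1 week (log2FC 3.84) and 0.586 and 0.515 at 8 weeks. The neutrophil chemokine genes Cxcl1 and Cxcl2 had acute log2FC of 1.75 and 1.92, at FPKM of 2.82 and 9.51 for Cxcl1 and of 0.311 and 1.17 for Cxcl2. All 3 chemokine genes thus stood higher in acute AN rats. Hmox1, the heme oxygenase gene, had 293 and 907 (1.63). The selectin genes Sele (1.43) and Selp (1.31), which serve leukocyte adhesion, were at FPKM of 1.55 or below in all groups. Vcam1, another adhesion gene, had 30.2 for SD and 13.9 for AN rats (-1.12). Csf1, which encodes a macrophage growth factor, was the other gene with a value below 0 at 1 week (-0.25), and both are named after their values were seen. At 8 weeks 1 of 8 genes compared was 2-fold higher in AN rats, beside 2.27% of all genes, and none in SD rats, beside 6.33%. This gene was Ptgs2, the inducible cyclooxygenase gene, with 1.87 and 3.80 (1.03), and the count was 0 with 0.1 or 1 FPKM added, with the rescaled sum and with direct names alone. Its acute values were 3.71 and 6.91 (0.90).

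**Figure D5:**
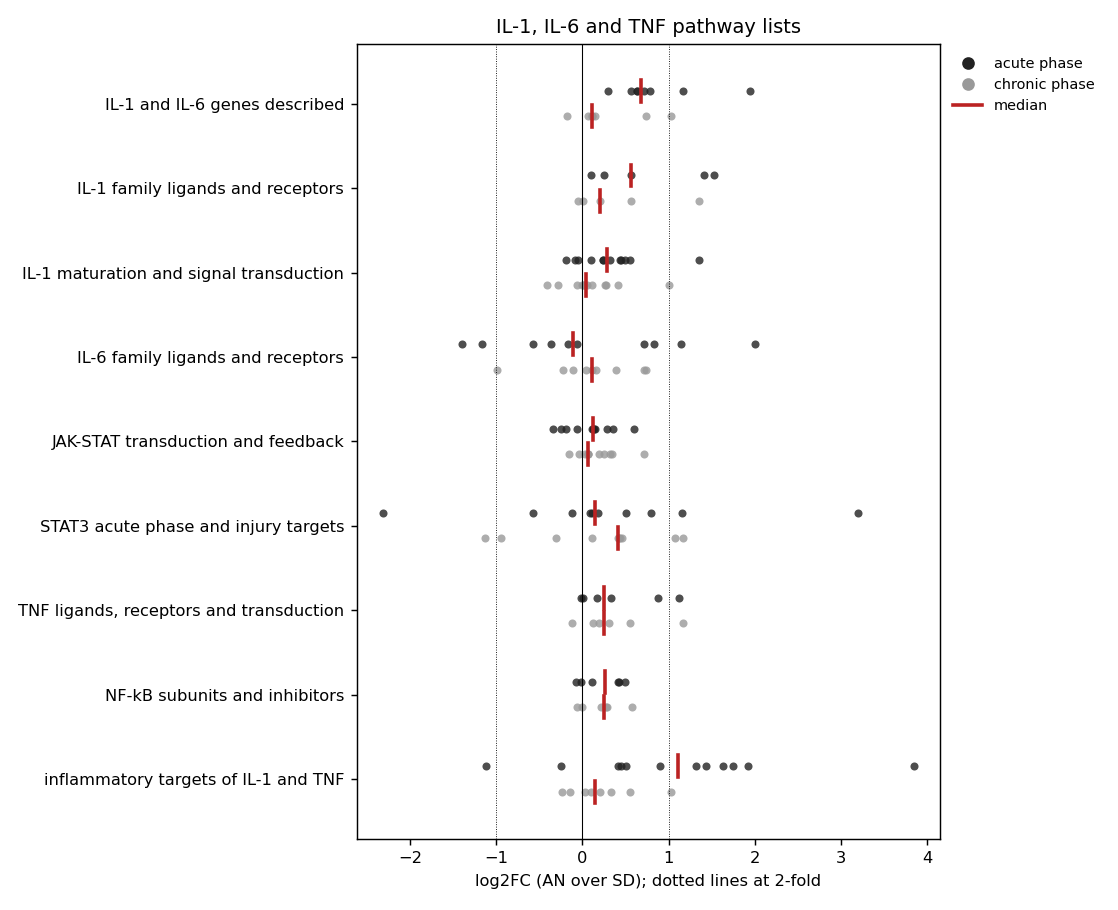
log2FC of AN over SD rats (horizontal axis) for the IL-1 and IL-6 genes and for 8 pathway lists, with 1 point for each gene that reached an FPKM of 1 in at least 1 strain. Dark points are the acute and grey points the chronic phase, red bars are medians and dotted lines mark 2-fold. The acute points of the inflammatory targets reach 3.84 with a median of 1.11, but 4 of these 12 genes, Ccl20 at 3.84 among them, reached the minimum in AN rats alone, and the median of the other 8 was 0.48.

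Patterns over the 4 groups most like those of Il1a and Il6 were sought among 9849 named genes that reached an FPKM of 1 in at least 1 group. Likeness was the Euclidean distance between the 4 values of log2(FPKM + 0.1), each gene centred on its own mean. For Il1a the nearest were Hmgn2l1 (distance 0.0233, acute FPKM 0.550 for SD and 1.31 for AN rats), Slc39a14 (0.158, 13.8 and 33.2) and Fhod1 (0.181, 22.9 and 43.9). The median distance from Il1a was 1.08. For Il6 the nearest were Rnf183 (0.167, 0.418 and 1.44), Glod5 (0.192, 1.92 and 7.40) and Ddx60 (0.387, 4.58 and 11.9), with a median distance of 2.02. Hmgn2l1 was named by gene order and the other 5 directly.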

How the data were processed

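RNA-seq was performed on polyA RNA of the injured cord segment of 12 rats in 4 groups of 3. The authors removed adapters with CutAdapt, mapped paired-end reads to RN4 with TopHat (version 1.5.0 in the submitters' processing notes) and assembled transcripts with Cufflinks (version 0.0.6 there) using quartile normalization, then compared strains with CuffDiff. They deposited 2 tables of FPKM, 1 for each phase, with 1 value for each group of 3 rats and each table normalized on its own. The tables also hold the authors' log2 fold change, test statistic, p-value, q-value and call for each gene, which were not used. A status column was read to see where reads were too few. Groups were taken from the strain and time point labels.

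Depth per gene is not given. Among 386 acute and 372 chronic genes with an FPKM above 0 and below 0.05 in both strains, the commonest log2 ratio was shared by 27 and 31 genes, too few to give the relative depth of the strains. No replicate error was taken from the authors' comparison columns, and no p-value was made.

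Identifiers were given symbols from the study's supplementary gene table and from synonyms in the GRCr8 RefSeq gene table (4691 directly), or by gene order along each strand between direct names (8993), for 78.5% of the genes in all. In 5 rounds of held-out names 1736 of 1777 names given again were right (97.7%). Il1a, Il6 and Il6r were named directly and the other genes found by order.

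log2FC was taken without a pseudocount. A gene was compared with an FPKM of at least 1 in at least 1 strain, above 0 in both, and counted as past a fold of 2 or 1.5. The counting was tested on simulated data. Named list genes are those past 2-fold, up to 6 for each list and phase by size of log2FC, while receptors and transducers could be named whatever their change, and for Il1a and Il6 the 3 nearest genes. The genes and lists were chosen with earlier results of these data known. Alternatives were an added FPKM of 0.1 or 1, other scalings, folds and minimums, and direct names alone. Python 3.11.15, numpy 2.4.6 and pandas 2.3.3 were used.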

Additional observations from a re-analysis of the deposited data

How the results depend on the processing

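Of 64 alternative values of log2FC for the 8 genes, 58 kept their direction and their side of 2-fold. With 1 FPKM added, Il1a in the acute phase had 0.95, Il6 in the acute phase 0.92 and Il1r2 in the chronic phase 0.50. Il1r2 in the chronic phase also fell short of 2-fold with 0.1 FPKM added (0.93) and with groups rescaled to the same summed FPKM (0.96), and under that scaling Il1a in the chronic phase reversed to -0.000549. That scaling moved the median log2FC of all genes to -0.10 at 1 week and -0.07 at 8 weeks.

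The number of the 8 genes at least 2-fold higher in AN rats of the acute phase, 2 as reported, was 0 with 1 FPKM added, 6 at 1.5-fold and 1 when both strains had to reach an FPKM of 1. In the chronic phase, 1 as reported, it was 0 with 0.1 or 1 FPKM added, with that scaling and with the minimum in both strains, and 2 at 1.5-fold. For the pathway lists, the acute count of 14 higher in AN rats was 9 with the minimum in both strains. The chronic count of 6 was 3 with 1 FPKM added, 11 without a minimum and 3 with direct names alone. The chronic count of 1 higher in SD rats was 0 with 1 FPKM added, 3 with the rescaled sum and 3 at 1.5-fold. The ratios between genes moved by less than 1.5-fold with 0.1 FPKM added. The cause of these shifts was not tested beyond the construction of each alternative.

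No paired analysis was made because the values used here give each group as 1 value, and for the same reason leaving out a rat was not run. Depth per gene is unknown, so values below an FPKM of about 1 (Il6, Il1r2, and Il11, Cxcl2, Ccl20, Sele and Selp in SD rats) are the least certain.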
